A study of Meleagris gallopavo with 3 samples.

Results

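The genes described here are the myogenic regulatory factors, their MEF2 partners and the SIX-family and EYA factors that act with them, measured in cultured turkey satellite cells. They were chosen by name, and a gene entered where its symbol equalled 1 of 9 names in the deposited expression table. Of the 9, 7 were found among 23976 genes in the table, namely MYOD1, MYF5, MYF6, MEF2A, MEF2C, MEF2D and SIX4. MYOG and EYA1 were not analysed here. RNA was sequenced as 3 libraries, 1 per culture, from satellite cells of the breast muscle of 1-day-old turkeys that had grown for 2 weeks before the cultures were separated. Differentiated cells stayed attached and received medium with 4% horse serum, in which they fused to myotubes. Suspension cells were detached and kept rotating in flasks for 3 months, with 15% chicken serum. The Adherent library came from undifferentiated cells that remained on 0.1% gelatin under the same serum. All cultures went through several passages, and the sources used here do not state how long the attached ones were kept. The experiment was carried out 3 times and the RNA of each culture was pooled before sequencing, so there are no replicates, no spread between cultures can be given, and no p-value was computed.

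The libraries are named here as their count columns are headed, Differentiating, Suspension and Adherent. The deposited fold changes use these names differently. Within 0.02 on the log2 scale, the column that names suspension against differentiating cells matched a ratio of Adherent-headed to Differentiating-headed counts in 100% of 12207 genes having 10 reads or more in both. The column that names adherent against differentiating cells matched the Suspension-headed counts instead, in 100% of 12154 genes. The headings Suspension and Adherent are thus used in both ways, and the values do not show which is right. Below, Suspension and Adherent name count columns, and which culture each column holds is uncertain. Exchanging the headings turns the sign of every ratio of Suspension over Adherent, and makes each ratio of Differentiating over Adherent one over Suspension and the reverse.

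MYOD1 and MYF5 belong to the determination factors of skeletal muscle, basic helix-loop-helix proteins that bind E-boxes on DNA together with E proteins and commit a cell to the muscle lineage. MYF6, also called MRF4, and myogenin act later, as myoblasts leave the cell cycle and fuse. MEF2 proteins are MADS-box factors that act with them on genes of the contractile apparatus, and SIX-family factors with EYA coactivators stand upstream of both, as known from mouse. In activated satellite cells MYF5 and MYOD1 are on, MYF5 is commonly reduced once myotubes form, and MEF2 genes remain active in muscle fibres.

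The table places MYOD1 on chromosome 5 (12327632 to 12330733), with 3 exons. MYF6 (39385517 to 39386204, 2 exons) and MYF5 (39388484 to 39390532, 1 exon) are neighbours on chromosome 1, 2280 bases apart. MEF2A lies on chromosome 12 (16261349 to 16337469), MEF2D on chromosome 27 (392669 to 424719) and SIX4 on chromosome 5 (53594206 to 53599921). MEF2C is listed on chromosome W (54102582 to 54139707), whereas RefSeq's Turkey_5.1 annotation has it on Z. The table does not name its build and the study's methods name an earlier assembly than Turkey_5.1, so positions are given as deposited. Starts seem to be counted from 0, since 4747 genes start 1 base before their RefSeq position. Of 10173 genes with the same chromosome name in both, 10166 overlap their RefSeq position. MEF2D has 4 annotated transcripts and each other gene has 1, so isoforms cannot be compared here. Only MEF2A overlaps another listed gene, LYSMD4, which had 2387, 2873 and 2182 exon reads in the Differentiating, Suspension and Adherent libraries. At least 99.0% of the exon reads of every member were unique to it in every library.

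The libraries held 22816125 exon reads (Differentiating), 23844835 (Suspension) and 17444865 (Adherent), and levels are given as exon reads per 1000000 of these (CPM). Every interval has 95% confidence and covers counting error alone, by the exact Poisson method for levels and by Clopper-Pearson, also exact, for shares and ratios. Genes are called changed from 2-fold on. Of 7 muscle markers in the table, 4, 7 and 6 reached 5 CPM in the Differentiating, Suspension and Adherent libraries, and their summed levels were 3094, 8000.4 and 8177 CPM. That list includes MYOD1 and MYF5, and 5 of its genes were called lower and 0 higher in Differentiating than in Adherent, and 6 lower and 0 higher than in Suspension. Over all genes 22.7% were lower and 18.3% higher in Differentiating than in Adherent, and 14.5% and 9.16% than in Suspension. In Suspension over Adherent 20.0% were lower and 21.6% higher. These shares stand beside the other marker counts of this paragraph as well. The 9 fibroblast markers summed to 59638 CPM in the Differentiating library, 17122 in the Suspension library and 9517 in the Adherent library. The 4 endothelial markers, with PECAM1 and CDH5, summed to 5.83, 3.94 and 355 CPM in the same order, and the 5 immune markers to 10.3, 12.5 and 107 CPM. The 6 smooth muscle and pericyte markers summed to 1544, 683 and 805 CPM. The sums were thus highest in the Differentiating library for fibroblast and smooth muscle markers and in the Adherent library for endothelial and immune markers. Single markers went both ways. In Suspension over Adherent 6 of the 9 fibroblast markers were called lower and 2 higher, with a median log2 ratio of −2.87. Their sum was still higher in Suspension, where COL1A2 had 10967 CPM against 3977 in Adherent. Of the smooth muscle and pericyte list 3 were called higher and 2 lower in Differentiating than in Adherent, among the lower MYH11, a defining smooth muscle gene, at 1.18 against 197 CPM, and of the fibroblast list 5 were higher and TCF21 was lower, at 3.94 against 35.5 CPM. Their part in the values below was not tested, and in these cultures fewer cells of a type and less RNA per cell cannot be told apart.

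All 7 genes were lowest in the Differentiating library. A gene in which that library is the lowest of the 3 is common, since this holds for 36.9% of 10929 genes with at least 5 CPM in any library and a ratio. Against the Suspension library all 7 were at least 2-fold lower, where 14.5% of all genes were, and none was higher, where 9.16% were. Against the Adherent library 5 were at least 2-fold lower, where 22.7% of genes were, and none was higher, where 18.3% of genes were. The same 5, MYOD1, MYF5, MYF6, MEF2D and SIX4, were at least 2-fold below both other libraries, as were 6.76% of all genes. The median log2 ratio of the 7 was −2.53 against Suspension and −2.16 against Adherent, beside −0.18 and −0.05 over all genes. Between the Suspension and Adherent libraries the genes went apart, 1 being at least 2-fold lower and 1 higher, where 20.0% and 21.6% of genes were. Their median was 0.63, beside 0.15 over all genes. MYOD1, MYF5 and SIX4 were highest in the Adherent library, and MYF6 and the MEF2 genes in the Suspension library.

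**Figure D1:**
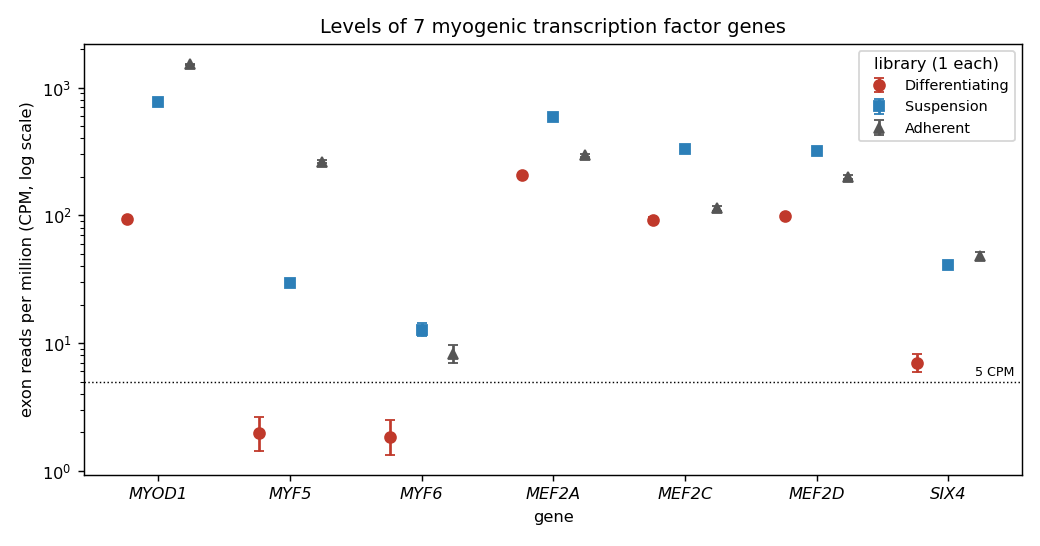
Level of each gene in CPM (log axis) in the Differentiating, Suspension and Adherent libraries, 1 point per library with its exact 95% Poisson interval for counting error. The red point is the lowest for all 7 genes, and MYF5 spans the widest range, with 1.97 CPM in Differentiating and 263 CPM in Adherent.

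MYOD1, the factor that can turn other cell types into muscle when it is forced on, was the most abundant member per length of exon in each library. It had 93.8 CPM (95% interval 89.9 to 97.9) in the Differentiating library, 768 (757 to 779) in the Suspension library and 1522 (1503 to 1540) in the Adherent library. The level was therefore lowest in the library headed Differentiating and highest in that headed Adherent. The log2 ratio of Differentiating over Adherent was −4.02 (95% interval −4.08 to −3.96), a 16.2-fold lower level. Against Suspension it was −3.03 (−3.10 to −2.97). Suspension over Adherent gave −0.99 (−1.01 to −0.96), an interval on both sides of the 2-fold limit, so MYOD1 counts as unchanged there only by a small margin. With the headings exchanged this ratio is 0.99. By level per kb of exon MYOD1 stood above 92.3% of detected genes in the Differentiating library, 99.2% in the Suspension library and 99.4% in the Adherent library.

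MYF5, the determination factor that in mouse is the first of the family to appear in the embryo, had the widest range of the 7. Its levels were 1.97 CPM (1.44 to 2.64, from 45 reads) in the Differentiating library, 29.7 (27.5 to 32.0) in the Suspension library and 263 (256 to 271) in the Adherent library. No interval touches another, and the 3 libraries are spaced in steps of several fold. The log2 ratio was −7.06 (−7.52 to −6.64) for Differentiating over Adherent, 133-fold lower, and −3.91 (−4.38 to −3.48) for Differentiating over Suspension. For Suspension over Adherent it was −3.15 (−3.26 to −3.03), 8.86-fold lower, which made MYF5 the only member at least 2-fold lower there, joined by MYOD1 under median-of-ratios or upper quartile scaling. With the headings exchanged it is 3.15 for MYF5.

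MYF6, the factor of late differentiation and of mature fibres, was the least abundant member by reads. It had 1.84 CPM (1.33 to 2.49, from 42 reads) in the Differentiating library, 12.7 (11.4 to 14.3) in the Suspension library and 8.25 (6.96 to 9.72) in the Adherent library. Unlike MYOD1 and MYF5, it was highest in the library headed Suspension. The log2 ratio of MYF6 was −2.16 (−2.70 to −1.66) for Differentiating over Adherent and −2.79 (−3.29 to −2.32) for Differentiating over Suspension. Suspension over Adherent gave 0.63 (0.34 to 0.92), under the 2-fold limit, and −0.63 with the headings exchanged. With a pseudocount of 10 CPM the ratio over Adherent for Differentiating is −0.62 and that over Suspension −0.94, since the levels of MYF6 are near or below that constant.

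MEF2A, which is expressed in many tissues besides muscle, had 206 CPM (201 to 212) in the Differentiating library, 585 (575 to 595) in the Suspension library and 296 (288 to 304) in the Adherent library. MEF2C, the member that in mouse is tied most closely to muscle and heart development, had 92.6 (88.7 to 96.6), 330.2 (323 to 338) and 114 (109 to 119) CPM in the same order. MEF2D, whose muscle-specific splice form appears as mouse myoblasts differentiate, had 99.0 (94.9 to 103), 318 (311 to 325) and 200.1 (193 to 207) CPM. All 3 were highest in the library headed Suspension, and the Differentiating and Adherent libraries lay closer together than for MYOD1 and MYF5.

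Of the MEF2 genes MEF2C had the largest difference between Suspension and Adherent, a log2 ratio of 1.53 (1.46 to 1.61), and it was the only member at least 2-fold higher there. MEF2A followed with 0.98 (0.94 to 1.03), whose interval includes the limit of 1, and MEF2D with 0.67 (0.61 to 0.73). With the headings exchanged these are −1.53 for MEF2C, −0.98 for MEF2A and −0.67 for MEF2D. Against the Suspension library the Differentiating library gave −1.50 (−1.55 to −1.45) for MEF2A, −1.83 (−1.90 to −1.76) for MEF2C and −1.68 (−1.75 to −1.62) for MEF2D, all past 2-fold with the whole interval. Against the Adherent library the same genes gave smaller values. MEF2A had −0.52 (−0.58 to −0.46) and MEF2C −0.30 (−0.39 to −0.21), neither past the limit. MEF2D had −1.02 (−1.09 to −0.94), which is past 2-fold by its value but not by its interval, and it was −0.83 under TMM scaling, −0.86 with median-of-ratios size factors and −0.95 with upper quartile scaling.

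SIX4, a homeodomain factor that in mouse binds regulatory regions of muscle genes, had 7.01 CPM (5.97 to 8.19) in the Differentiating library, 40.6 (38.0 to 43.2) in the Suspension library and 48.0 (44.8 to 51.4) in the Adherent library. The levels in the Suspension and Adherent libraries were close, with a log2 ratio of −0.24 (−0.38 to −0.11), or 0.24 with the headings exchanged. For Differentiating over Adherent the log2 ratio of SIX4 was −2.78 (−3.03 to −2.53), and over Suspension −2.53 (−2.78 to −2.29). By exon reads SIX4 thus separated the Differentiating library from the other libraries and hardly separated those from each other.

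**Figure D2:**
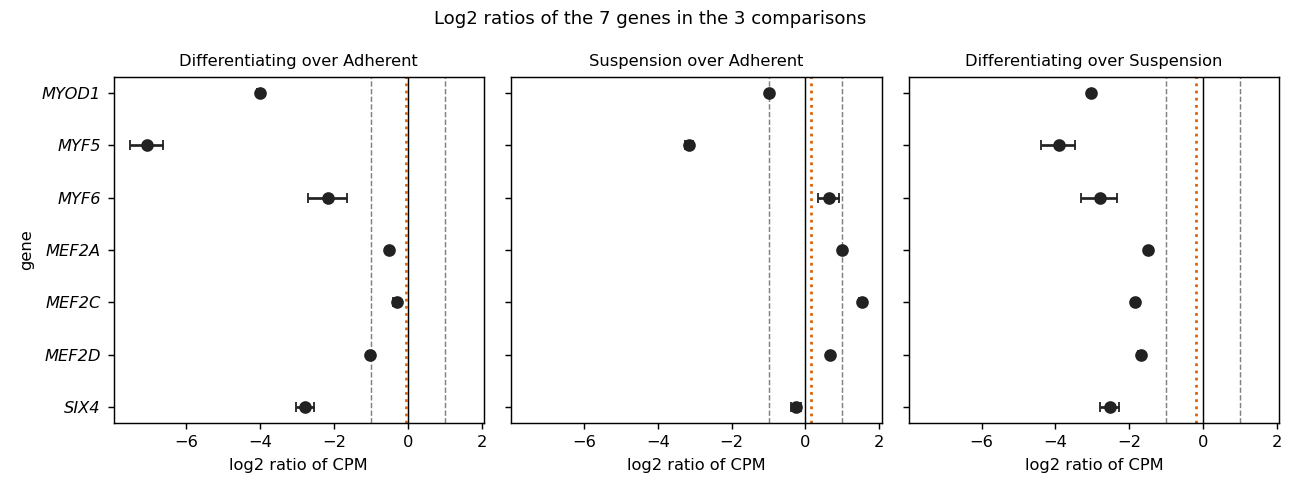
Log2 ratio of CPM for each gene in the 3 comparisons, with exact 95% Clopper-Pearson intervals for counting error; dashed lines mark 2-fold and the orange dotted line the median of all genes. All ratios with Differentiating on top lie below 0, from −7.06 for MYF5 to −0.30 for MEF2C over Adherent, while Suspension over Adherent runs from −3.15 for MYF5 to 1.53 for MEF2C.

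Levels of different genes were compared per kb of exon. In the Differentiating library the order was MYOD1 at 67.5 CPM per kb, MEF2A at 36.6, MEF2D at 27.8, MEF2C at 16.1, MYF6 at 3.67, SIX4 at 3.36 and MYF5 at 0.963. The intervals of MYF6 and SIX4 overlap there, and all other neighbours are apart. In the Suspension library the order was the same, with MYOD1 at 552, MEF2A at 104, MEF2D at 89.2, MEF2C at 57.5, MYF6 at 25.4, SIX4 at 19.4 and MYF5 at 14.5, and every neighbour was apart. In the Adherent library MYF5 stood in the place after MYOD1, with 128 against 1095 CPM per kb, followed by MEF2D at 56.1, MEF2A at 52.5, SIX4 at 23.0, MEF2C at 19.8 and MYF6 at 16.4, and only MEF2C and MYF6 overlapped. MYF5 therefore took the last place in the Differentiating and Suspension libraries and the place below MYOD1 in the Adherent library. These values rest on the exon length of the table, which is 502 bases for MYF6.

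Ratios between genes of the same library do not depend on how libraries are scaled. MYOD1 exceeded MYF5 per kb by 70.1 times (52.2 to 96.4) in the Differentiating library, 38.1 times (35.3 to 41.1) in the Suspension library and 8.52 times (8.26 to 8.79) in the Adherent library. MYF5 was 14.7% (14.3 to 15.1) of the reads of the 3 regulatory factors in the Adherent library, against 2.02% (1.48 to 2.69) in the Differentiating and 3.66% (3.40 to 3.94) in the Suspension library. MYF6 took a larger share in the Differentiating library, 1.89% (1.36 to 2.54), and in the Suspension library, 1.57% (1.40 to 1.76), than in the Adherent library, 0.460% (0.388 to 0.542). Within the family the balance between the counts of the early factor MYF5 and the late factor MYF6 thus differed, MYF5 being 0.263 times MYF6 per kb in the Differentiating library, 0.571 times in the Suspension library and 7.81 times in the Adherent library. The MYF6 side rests on 490 exon reads over the 3 libraries, none of which crossed its annotated junction.

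The balance between both families differed as well. The regulatory factors summed to 72.1 CPM per kb in the Differentiating library, 592 in the Suspension library and 1239.6 in the Adherent library, and the MEF2 genes to 80.5, 250.4 and 128. The regulatory factors were 0.896 times the MEF2 genes in the Differentiating library, 2.37 times in the Suspension library and 9.65 times in the Adherent library. Among the MEF2 genes the shares were more alike. MEF2C took 23.3% (22.4 to 24.2) of their reads in the Differentiating library, 26.8% (26.3 to 27.3) in the Suspension library and 18.7% (18.0 to 19.4) in the Adherent library. MEF2D was 24.9% (24.0 to 25.8), 25.8% (25.3 to 26.3) and 32.8% (31.9 to 33.7) in that order, so the Adherent library held more MEF2D and less MEF2C for the same sum of reads.

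**Figure D3:**
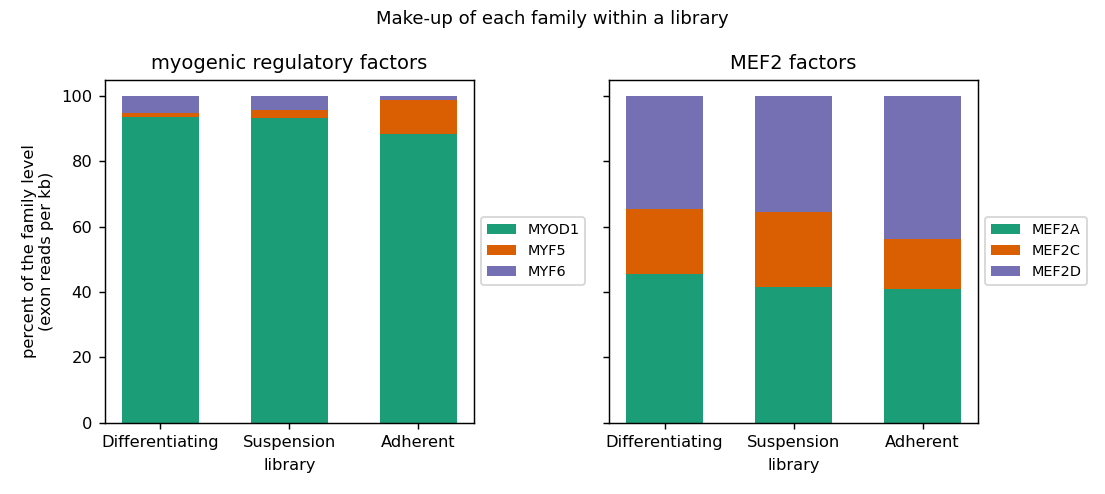
Make-up of the myogenic regulatory factors (left) and the MEF2 genes (right) within each library, as percent of the summed exon reads per kb, with 1 bar per library. MYOD1 makes up 93.6%, 93.3% and 88.3% of its family in the Differentiating, Suspension and Adherent libraries, and MYF5 1.34%, 2.45% and 10.4%.

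Reads on introns and across exon junctions gave further readouts of the same genes. Intron reads were 3.34% (2.63 to 4.18) of MYOD1 gene reads in the Differentiating library, 3.94% (3.67 to 4.23) in the Suspension library and 4.67% (4.42 to 4.92) in the Adherent library. For MEF2C they were 5.67% (4.75 to 6.71), 8.23% (7.66 to 8.83) and 18.1% (16.6 to 19.7) in that order, and for MEF2A 12.7%, 13.4% and 16.8%. The Adherent library was highest for these 3 genes, and it was also highest over the whole table, where intron reads were 12.0%, 15.2% and 24.3% of gene reads. SIX4 had 9.60% (5.70 to 14.9), 2.72% (1.80 to 3.93) and 13.4% (11.3 to 15.7) intron reads, so its Suspension library stood below the others although its exon level there was close to that in the Adherent library. MEF2D had 5.36%, 3.84% and 4.41%. MYF5 has 1 exon and no intron.

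Reads across exon junctions were 14.2%, 14.7% and 16.0% of MYOD1 exon reads in the Differentiating, Suspension and Adherent libraries. For MEF2D they were 14.9% (13.4 to 16.4), 13.7% (13.0 to 14.5) and 7.56% (6.71 to 8.49), a lower share in the Adherent library than in the others. The Adherent library was also lowest over the whole table, where junction reads were 38.5%, 34.6% and 31.2% of exon reads. The median gene with several exons and at least 100 exon reads had 32.0%, 31.1% and 27.7%, and every member stood below it. For MEF2A the shares were 5.05%, 4.67% and 3.02%, and for MEF2C 5.11%, 7.34% and 4.83%. SIX4 was low as well, with 1.88% (0.388 to 5.38), 1.45% (0.794 to 2.42) and 3.58% (2.43 to 5.07). The upper limits of MYF6, 8.41%, 1.21% and 2.53%, lie within or above these SIX4 intervals. Among the genes with introns only MYF6 had no junction read. None of its 490 exon reads over the 3 libraries crossed the junction of its 2 annotated exons, although 211 reads lay in the intron of 185 bases. The 0 of 304 exon reads in the Suspension library allow a share of up to 0.987% as 3 reads of the total, or 1.21% as the exact 95% upper limit. Read density in that intron was 77.5%, 97.3% and 169.6% of the density in the exons, where the median gene had 1.57%, 1.60% and 3.97%, and over 99% of genes lay below MYF6 (99.5%, 99.5% and 99.7%). The exon counts of MYF6 are thus few, cover 502 bases and hold no read that crosses the annotated junction.

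**Figure D4:**
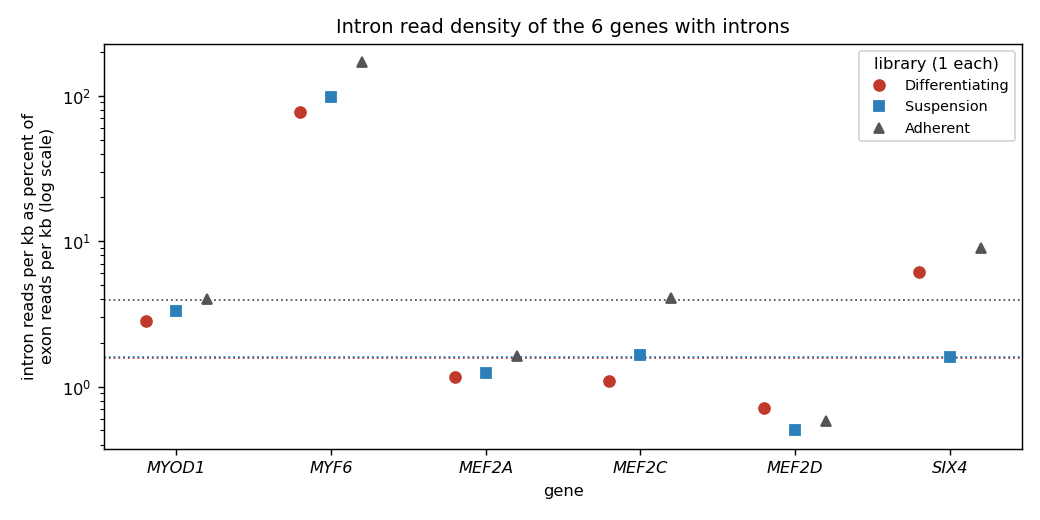
Intron reads per kb as percent of exon reads per kb (log axis) for the 6 genes with introns in each library; dotted lines mark the median of 9481 to 9615 genes, which is 1.57% in Differentiating, 1.60% in Suspension and 3.97% in Adherent. MYF6 lies between 77.5% and 169.6%, far above the lines, and no other gene exceeds 8.94%.

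Of the E proteins that pair with the regulatory factors, TCF3 and TCF12 were in the table and neither changed 2-fold in any comparison. TCF12 had 713, 1207 and 751 CPM in the Differentiating, Suspension and Adherent libraries, and TCF3 had 9.29, 10.3 and 17.5. Of 15 measured inhibitors of these factors, Differentiating over Adherent had 7 lower by 2-fold or more and 4 higher, with a median log2 ratio of −0.86. Against Suspension 7 were lower and 4 higher (median −0.94), and 5 were lower and 1 higher in Suspension than in Adherent (median −0.77). Over all genes 22.7% were lower and 18.3% higher in Differentiating than in Adherent, and 14.5% and 9.16% than in Suspension. In Suspension over Adherent the shares were 20.0% and 21.6%. All-gene medians were −0.05, −0.18 and 0.15 for these comparisons, which holds for the lists below as well. ID1, which binds E proteins and keeps them from DNA, had 16.9 CPM in the Differentiating library, 40.1 in the Suspension library and 295 in the Adherent library. The Notch effectors HEY1 and HEY2 went apart. HEY1 had 6.75, 46.0 and 81.4 CPM and HEY2 77.6, 14.3 and 5.04 CPM in the same order. TWIST2, a mesenchymal repressor, had 21.3, 1.09 and 4.87 CPM. SNAI2 and BHLHE40 were the most abundant of the list, with SNAI2 at 285, 164 and 144 CPM and BHLHE40 at 339, 266 and 495. SNAI2 lay at the limit in Differentiating over Adherent, with a log2 ratio of 0.99 (0.92 to 1.06), and under TMM, median-of-ratios and upper quartile scaling 5 of the list were higher there instead of 4.

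Among 21 co-regulators of MEF2, 8 were lower by 2-fold or more and 1 higher in Differentiating than in Adherent (median −0.55), 3 lower and 3 higher in Differentiating than in Suspension (median −0.36), and 5 lower and 3 higher in Suspension than in Adherent (median −0.38). Shares of all genes lower and higher were 22.7% and 18.3%, 14.5% and 9.16%, and 20.0% and 21.6% in these comparisons. VGLL2, a cofactor of TEAD and MEF2 factors in muscle, had 7.63, 7.13 and 328 CPM in the Differentiating, Suspension and Adherent libraries, a log2 ratio of −5.42 (−5.65 to −5.21) for Differentiating over Adherent and −5.52 (−5.75 to −5.30) for Suspension over Adherent. The serum response factor SRF followed a shallower order, with 119.9 CPM in Differentiating, 283 in Suspension and 559 in Adherent. NFATC2, a calcineurin-regulated factor that in mouse promotes the fusion of myoblasts with growing myotubes, had 1.53, 0.713 and 35.3 CPM. These rest on 35, 17 and 615 reads. VGLL2 and NFATC2 were thus low in both the Differentiating and Suspension libraries. MEF2B, the remaining MEF2 gene, had 3.68, 11.9 and 3.96 CPM and was highest in the library headed Suspension like its relatives. HDAC7, of the class that represses MEF2, had 299, 274 and 154 CPM, and the kinase CAMK4 13.8, 3.19 and 4.99.

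Of 9 genes of the SIX-EYA-DACH-PAX network in the table, 7 reached 5 CPM. In Differentiating 4 of these were lower by 2-fold or more and 2 higher than in Adherent (median −1.77), and 4 lower and 1 higher than in Suspension (median −1.27). In Suspension 2 were lower and 4 higher than in Adherent (median 1.31). For all genes the shares in these comparisons were 22.7% and 18.3%, 14.5% and 9.16%, and 20.0% and 21.6%. EYA2, a coactivator of SIX-family factors, had 63.7 CPM in the Differentiating library, 154 in the Suspension library and 5.22 in the Adherent library, an order unlike that of SIX4. PAX7, the defining factor of satellite cells, which acts upstream of MYF5 in mouse, was highest in the library headed Suspension, with 1.10, 24.2 and 4.93 CPM, so that the library with the most PAX7 was not the one with the most MYF5, under either reading of the headings. The homeobox gene MEOX2 had 14.3, 0.671 and 48.8 CPM, with 16 reads in Suspension. DACH2, a cofactor of the same network, had 0.175, 0.252 and 7.57 CPM, from only 4, 6 and 132 reads. PITX3, a homeobox gene expressed in skeletal muscle, had 21.3, 125 and 187 CPM.

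Cofactors of MYOD1 and genes of cell cycle exit were mixed. Of 13, 3 were lower by 2-fold or more and 2 higher in Differentiating than in Adherent (median 0.37), 4 lower and 1 higher than in Suspension (median −0.07), and 2 lower and 3 higher in Suspension than in Adherent (median 0.31). Among all genes the lower and higher shares were 22.7% and 18.3%, 14.5% and 9.16%, and 20.0% and 21.6% for these comparisons. CDKN1A, which encodes the cyclin-dependent kinase inhibitor p21 that MyoD switches on in mouse cells, had 268 CPM in Differentiating, 228 in Suspension and 27.2 in Adherent. RB1, the retinoblastoma gene, had 7.23, 7.26 and 1.15 CPM in that order, the last from 20 reads. CDKN1A and RB1 were thus more than 2-fold higher in both the Differentiating and Suspension libraries than in Adherent. RBM24, an RNA-binding protein of muscle splicing, had 235, 1036 and 1011 CPM. CDKN1B, which encodes the inhibitor p27, had 313, 677 and 385 CPM and SETD7, a methyltransferase that interacts with MyoD, 51.6, 128 and 40.0.

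Targets that the regulatory factors and MEF2 switch on were mostly higher in the library headed Suspension, and with the headings exchanged that library is the adherent culture. Of 26 measured, Differentiating over Suspension had 24 lower by 2-fold or more and 0 higher, with a median log2 ratio of −1.99. Against Adherent 11 were lower and 5 higher in Differentiating (median −0.54), and in Suspension 4 were lower and 17 higher than in Adherent (median 1.36). Beside these counts, 14.5% and 9.16%, 22.7% and 18.3%, and 20.0% and 21.6% of all genes were lower and higher. The targets did not share 1 order of libraries. CHRNA1, a subunit of the acetylcholine receptor, had 298 CPM in Differentiating, 2674 in Suspension and 159 in Adherent. The troponins TNNC1 and TNNT2 of slow and embryonic muscle were lowest in the library headed Adherent, which is the suspension culture if the headings are exchanged, with 228, 969 and 28.8 CPM for TNNC1 and 943, 4225 and 97.1 CPM for TNNT2. The fast troponin TNNC2 had 65.6, 401 and 832 CPM and the ubiquitin ligase TRIM63 39.1, 136 and 424, which put the Adherent library highest as for MYOD1. ACTA1, skeletal actin, had 1756, 1691 and 4739 CPM, and RAPSN, which clusters acetylcholine receptors, 18.0, 162 and 127.

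**Figure D5:**
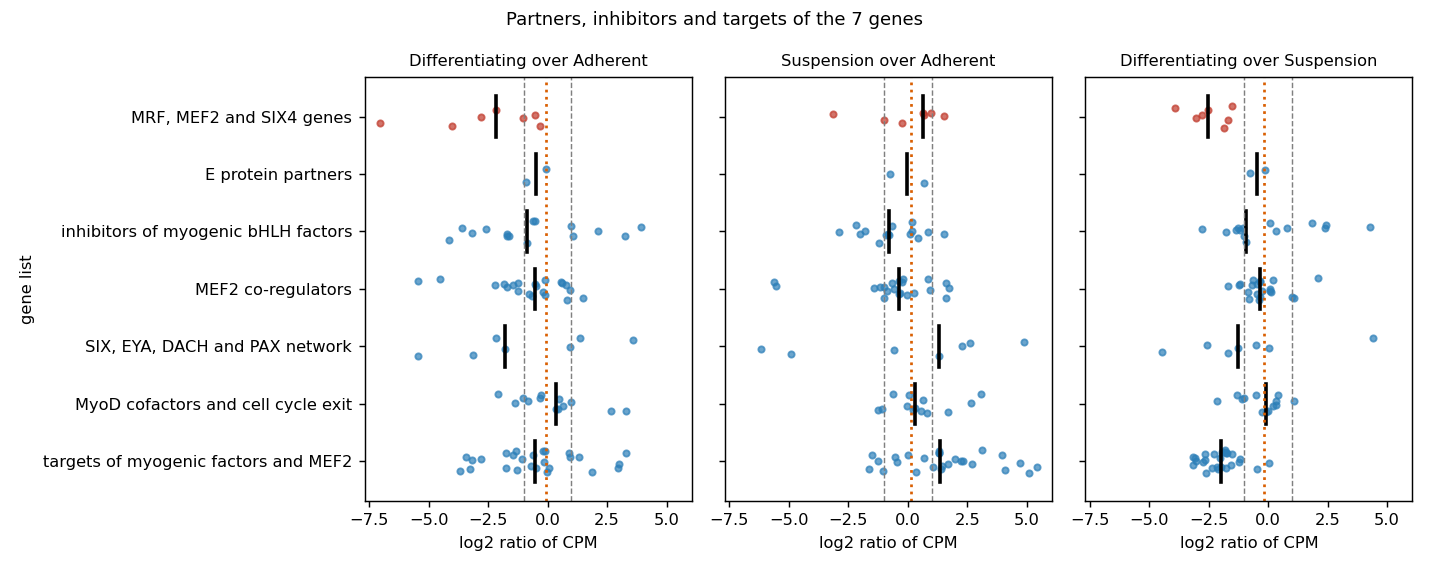
Log2 ratios of the 7 genes (red) and of 6 gene lists (blue, 1 point per gene with at least 5 CPM in any library) in the 3 comparisons; black bars are medians, dashed lines 2-fold and the orange dotted line the median of all genes. The targets lie almost wholly below −1 in Differentiating over Suspension (median −1.99) and mostly above 1 in Suspension over Adherent (median 1.36).

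Genes with the most similar pattern were sought among 8490 genes with a symbol, at least 5 CPM in any library and 10 reads in each, by the distance between log2 levels over the 3 libraries, each gene centred on its own mean. With 3 points per gene a small distance is common for plain patterns and says nothing of shared control. MYF5 had no gene within 0.25, and the closest were MEGF10, a receptor of satellite cells (distance 0.386, with 2.85, 33.2 and 426 CPM in the Differentiating, Suspension and Adherent libraries), OPTC (0.498) and PLXNA2 (0.617). For MYOD1 4 genes lay within 0.25, led by CYGB, the oxygen-binding protein cytoglobin (0.139), with PLA1A (0.153) and the ligand BMP6 (0.189). MYF6 also had 4, with LAMP5 (0.126), CKS2 (0.166) and SLC45A3 (0.225) in front. SIX4 had 17 and was closest to MYOT (0.0321), VSTM2L (0.0411) and SYNPO2L (0.0578), of which MYOT encodes the Z-disc protein myotilin. The MEF2 genes had commoner patterns. MEF2A had 78 genes within 0.25, first KIAA0232 (0.0289), HS6ST1 (0.0346) and HACD1 (0.0359). MEF2C had 45, first NBEAL2 (0.0267), INPP5J (0.0340) and RIPPLY1 (0.0361), and MEF2D had 43, first IFFO1 (0.0241), SLCO5A1 (0.0302) and NECTIN3 (0.0313). Among the members, MEF2A was closest to MEF2D (0.355) and to MEF2C (0.393), and MYF5 and MEF2C were the farthest apart (4.90), MYF5 being 2.21 from MYOD1, its closest member.

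With the headings Suspension and Adherent exchanged, all 7 genes remain lowest in the Differentiating library. At least 2-fold lower are then 7 over Adherent and 5 over Suspension. Between suspension and adherent cultures MYF5 would then be the gene higher in suspension and MEF2C the lower, and the median of the targets would be −1.36.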

How the data were processed

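Satellite cell RNA of 3 cultures was sequenced as 1 library each. The authors report bcl2fastq 2.20, trimming with Skewer, alignment with STAR 2.5.2b to a turkey genome with an Ensembl annotation, and featureCounts. Whether the deposited table was made in this way is not stated there. The deposited counts are unscaled reads per gene on exons, introns and exon junctions. The deposited RPKM values are the authors' counts scaled by exon length and library size. They were read only for the order of levels within a library, which that scaling leaves as it is per kb. Exon lengths, exon numbers and transcript numbers are other deposited columns of annotation. The authors' fold changes, deposited as signed scores, were read only to find which counts they compare.

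CPM are exon counts per 1000000 exon reads of the library. Ratios carried no pseudocount, counts of 0 were set to a floor of 3, and genes with both counts at or below the floor got no ratio. The filter of 5 CPM in any library kept 11022 of 23976 genes, and calls were made from 2-fold on. One read is 0.0438, 0.0419 and 0.0573 CPM in the Differentiating, Suspension and Adherent libraries. Intervals cover counting error at 95%. Python 3.11.15, numpy 2.4.6, pandas 2.3.3, scipy 1.17.1 and edgeR 4.0.16 (TMM and upper quartile factors) in R 4.3.3 were used. The calls were tested on simulated data with 200 changed genes, with counting noise only.

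The members and lists were chosen with earlier results of these data known. Named genes are all members, then per list the 2 with the largest ratio in each comparison and the 2 with the highest mean, then the 3 closest in pattern to each member. The table's symbols TMEM8C, MKL1 and MKL2 stood for MYMK, MRTFA and MRTFB. The planned search of promoters and the comparison of proteins were not run, since no sequences were used here. Alternatives were other pseudocounts, scalings, filters, fold limits, read classes and exchanged headings. Symbols were compared with RefSeq's Turkey_5.1 annotation for names, chromosomes and positions. A Schwann cell marker list was also computed and is not reported here.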

Additional observations from a re-analysis of the deposited data

How the results depend on the processing

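All 14 ratios of the 7 genes with Differentiating on top stayed below 0 under each scaling and with reads unique to a gene. Pseudocounts, filters, fold limits and exchanged headings cannot turn these signs. With intron reads 10 of 12 were below 0. Of the 7, 5 were at least 2-fold lower in Differentiating than in Adherent, 4 under each scaling without MEF2D, 3 with a pseudocount of 10 CPM and 3 with intron reads. All 7 were at least 2-fold lower in Differentiating than in Suspension, 6 with a pseudocount of 10 CPM, 4 at a limit of 4-fold and 4 with intron reads. MYF5 has no intron and is left out of the counts with intron reads. In Suspension over Adherent 1 member was lower and 1 higher, where 20.0% and 21.6% of all genes were. With median-of-ratios size factors 2 were lower, with upper quartile scaling 2, and at a limit of 1.5-fold 2 were lower and 4 higher. At a limit of 4-fold 0 were higher. With intron reads 3 were higher, and the 1 lower was SIX4 in place of MYF5. SIX4 had 27 of 4279114 intron reads in Suspension and 130 of 5588213 in Adherent. Shares of all genes at the limits of 1.5-fold and 4-fold and with intron reads are not given here. MEF2D in Differentiating over Adherent turned to 0.52 with intron reads, which were 128 and 161. The other ratio above 0 was that of MEF2A in the same comparison. MEF2A had 684 of 3107055 intron reads in Differentiating and 1046 of 5588213 in Adherent. The cause was not tested for either gene. Exchanged headings turned Suspension over Adherent to 3.15 for MYF5, −1.53 for MEF2C, −1.31 for the median of the SIX-EYA-DACH-PAX network and −1.36 for that of the targets. The median of all genes moved from −0.05 to 0.14 (TMM) and 0.11 (median-of-ratios) in Differentiating over Adherent, and from −0.18 to −0.01 (TMM), 0.01 (median-of-ratios) and −0.02 (upper quartile) in Differentiating over Suspension. Reads unique to a gene left all 21 member ratios within their intervals. The filter does not enter these ratios, so no filter and a minimum of 1 CPM could not change them. RPKM gave the same order of the 7 genes in each library, which it must, being the same counts over the same exon lengths. No paired analysis was possible because the RNA of the experiments was pooled into 1 library per culture. With 1 pooled library per culture, the spread between cultures is unknown, and 42 and 45 reads limit MYF6 and MYF5 in the Differentiating library.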

Other observations

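Of 346 genes with 2 annotated exons and at least the 490 exon reads of MYF6 over the 3 libraries, 35 (10.1%) also had 0 reads across the junction. The table lists 1201 genes on chromosome W, where MEF2C lies, and 5 on Z. Of the 419 W genes whose symbol was found in RefSeq's Turkey_5.1 annotation, 419 lie on Z there and 0 on W.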
